A study of Mus musculus with 10 samples.

Results

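Leucine-rich repeat synaptic adhesion genes were followed in sorted ganglion cells, the neurons whose axons leave the eye in the optic nerve, from mice with and without Satb1, a chromatin protein. The members were 32 genes named by symbol: 6 Slitrk, 4 Lrrtm, 3 Flrt, 2 Elfn, 5 Lrfn, 4 Lingo, 3 Lrrc4 and 3 Lrrn genes, and the 2 netrin-G genes Ntng1 and Ntng2, whose proteins are ligands of Lrrc4 proteins. All 32 were found among the 23258 gene symbols of the table, and 30 of them were among the 11744 genes with at least 1 TPM (transcripts scaled for their length and for the library total, so that each library has the same sum) in at least 5 libraries. The Satb1-/- Hb9 libraries, called knockout here (5 libraries), were set against the WT Hb9 libraries, called wild-type (5 libraries). All 10 libraries came from C57BL/6 mice at postnatal day 6, and in all of them the cells carried the Hb9-GFP reporter and were sorted by flow cytometry, with RNA of about 1000 cells amplified per library. The 5 libraries of each genotype came from different litters. The labels do not give the sex of the mice or the part of Satb1 that is missing, and Hb9-GFP is known to label mainly a direction-selective kind of ganglion cell, so other kinds were not sampled by design.

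Proteins of these families carry leucine-rich repeats outside the cell, a fold that binds partner proteins across the synaptic cleft. Most sit on the receiving side of a synapse, where they bind neurexins, receptor tyrosine phosphatases, latrophilins or netrin-Gs on the incoming axon and help to set up excitatory or inhibitory contacts. In the retina, such pairs take part in matching axons and dendrites to the right layer and partner while synapses form in the first postnatal weeks.

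Satb1 transcripts were at 170, 126, 83.1, 34.9 and 24.1 TPM in knockout 1 to 5, against 304, 189, 414, 132 and 38.6 TPM in wild-type 1 to 5, so the genotypes overlapped and a value over the whole gene checks the labels only weakly. Knockout 4, knockout 5 and wild-type 5 stood apart from the other 7 libraries on the first principal component of all tested genes, which held 32.9% of the variance (scores of 88 to 149, against at most -14.2). Ganglion cell markers were present throughout: all 9 had a median of at least 1 TPM, and their sum ran from 12103 to 99427 TPM in knockout and from 14098 to 28219 TPM in wild-type. Nefl alone held 94381 TPM of the highest sum, in knockout 3. Pou4f1 was at 72.7, 39.6 and 37.4 TPM in knockout 4, knockout 5 and wild-type 5, against 194 to 371 TPM in the other 7 libraries. Pou4f2, Isl1 and Slc17a6 were also lowest in those 3 libraries, while Thy1 was highest in them and the other ganglion cell markers did not split this way. The sum of 5 genes of direction-selective ganglion cells ran from 116 to 305 TPM in knockout and from 534 to 1101 TPM in wild-type, without overlap. Without Cartpt, which lay at 1.63 to 47.3 TPM in knockout and 56.8 to 843 TPM in wild-type, the other 4 summed to 68.8 to 303 TPM in knockout and 170 to 478 TPM in wild-type, with overlap. Unadjusted limma p-values under 0.05 among the marker lists were those of Cartpt, Mmp17 and Col25a1 of this list and the amacrine gene Slc6a9, all lower in knockout, and of the microglial gene Fcer1g, higher in knockout, each with an adjusted p of at least 0.134. Slc6a9 lay at 0 to 1.6 TPM in knockout and 2.03 to 19.2 TPM in wild-type, without overlap, and Fcer1g at 13.1 to 1483 TPM in knockout and 0.634 to 97.8 TPM in wild-type. The sum of 9 rod genes ran from 1.21 to 459 TPM in knockout and from 3.89 to 464 TPM in wild-type, and that of 8 microglial genes from 70.4 to 2743 TPM in knockout and from 2.73 to 2198 TPM in wild-type. The sums of 6 Muller glia genes were 78.9 to 5713 TPM in knockout and 99.9 to 414 TPM in wild-type, those of 6 bipolar cell genes 2.46 to 70.1 TPM and 1.65 to 123 TPM, and those of 7 amacrine cell genes 88.9 to 262 TPM and 82.4 to 358 TPM, in the same order. Of the 5713 TPM in knockout 5, Apoe alone held 5651 TPM and Glul 61.5 TPM, while Rlbp1, Slc1a3 and Sox9 were listed at 0 there. Otx2 alone held 120 and 115 TPM of the bipolar sums of 123 and 119 TPM in wild-type 4 and 5. Most of the amacrine sum was Pax6, which ganglion cells also express, and the other 6 summed to 0.421 to 16.2 TPM in knockout and 7.84 to 21.3 TPM in wild-type. Median levels were under 1 TPM for 2 of the rod, 3 of the Muller glia, 4 of the bipolar and 4 of the amacrine genes. The 4 endothelial and 4 starburst amacrine genes all had medians under 1 TPM. The part of these cells, or of the kind of ganglion cell captured, in the results below was not tested.

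Transcripts of most of the adhesion genes were found in these libraries. Over the 10 libraries, 3 members had a median of at least 100 TPM, 20 of 10 TPM up to 100 TPM, 7 of 1 TPM up to 10 TPM and 2 under 1 TPM. Lingo1 was the highest with a median of 321 TPM (place 313 among all symbols), followed by Lrrn1 at 167 TPM, Lrrc4b at 103 TPM, Lrrn3 at 76.3 TPM, Lrfn3 at 70.6 TPM and Elfn1 at 65.2 TPM. At the low end stood Ntng2 at 4.17 TPM, Lingo4 at 4.03 TPM, Lrrtm4 at 1.75 TPM, Lrfn2 at 0.576 TPM and Slitrk2 at 0.117 TPM. For all 31 pairs of neighbours in this order, the ranges over the 10 libraries overlapped. The order is a description, and neighbours were not compared within each library.

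**Figure D1:**
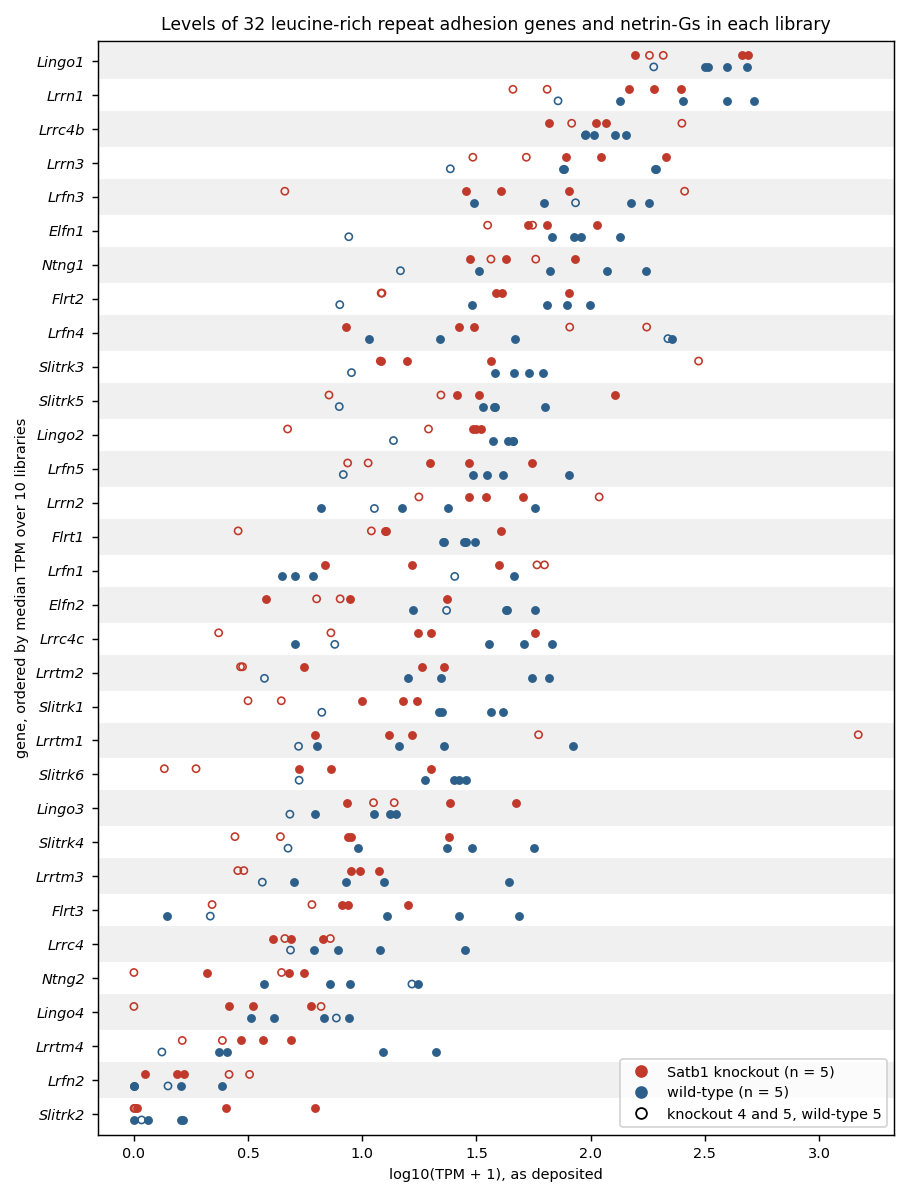
Level of each of the 32 members in each library, as log10(TPM + 1), with genes ordered by their median TPM. Knockout libraries are red and wild-type libraries blue. Open circles mark knockout 4, knockout 5 and wild-type 5. Lingo1 lies at the top and Slitrk2 at the bottom, and the genotypes overlap for each gene.

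None of the 30 tested members passed the test between genotypes. With limma and Benjamini-Hochberg adjustment over all 11744 genes, 0 members and 0 genes in all (0% of those tested) had an adjusted p under 0.05, and each of the 30 had an adjusted p of at least 0.992. At an unadjusted p under 0.05 the same fit held 389 genes. Among them were 3 members, all lower in knockout: Elfn2, Slitrk6 and Ntng2. They are 10% of the members tested, where 2.57% of all tested genes were lower at that p. No member was higher at that p, where 0.741% of all tested genes were. No member had knockout libraries all below (0.426% of all tested genes) or all above (0.0766%) the wild-type libraries. In sorted bulk samples, fewer cells of a type and less RNA per cell cannot be told apart.

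Across the list, 25 of 30 tested members had a negative difference (knockout minus wild-type), against 67.4% of all tested genes. The median difference was -0.66 on the log2(TPM + 1) scale for the members and -0.31 for all tested genes, and 19 members lay below -0.31 and 11 above it. After centring each library on its median, which moved the median of all genes to 0.07, 18 members were lower and 12 higher, against 46.1% lower of all tested genes, and the members' median was -0.28. After quantile normalization 22 members were lower and 8 higher, against 52.3% of all tested genes. Without knockout 4, knockout 5 and wild-type 5, 25 members were lower, against 61.8% of all tested genes.

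The 3 libraries that stood apart held the low ends of many members, and of many of all tested genes as well. Among the 30 tested members, knockout 4 or 5 was the lowest knockout library for 21 (70%), near the 62.0% of all tested genes. For 20 members (66.7%) wild-type 5 was the lowest wild-type library, against 43.9% of all tested genes. Wild-type 5 was the highest wild-type library for none of the 30, while wild-type 1 was for 14. A single tubulin gene, Tuba1a, held 159316 of the 1000000 TPM of wild-type 5, against 10704 to 25569 TPM in wild-type 1 to 4. The part of Tuba1a in the low values of wild-type 5 was not tested. The summed TPM of the 32 members was 1791, 1498, 986, 1477 and 2416 in knockout 1 to 5, against 2440, 1742, 1877, 1744 and 882 in wild-type 1 to 5. The sum of knockout 5 contains 1484 TPM of Lrrtm1 and 296 TPM of Slitrk3. On the remaining 7 libraries (3 knockout, 4 wild-type), the knockout values of 3 members, Slitrk1, Slitrk3 and Lingo2, all lay under the wild-type values, where 4.49% of all tested genes did, and 0 members had them all above, where 1.11% did. At an unadjusted limma p under 0.05, 2 members were lower in that fit, Slitrk3 and Elfn2, where 3.19% of all tested genes were.

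**Figure D2:**
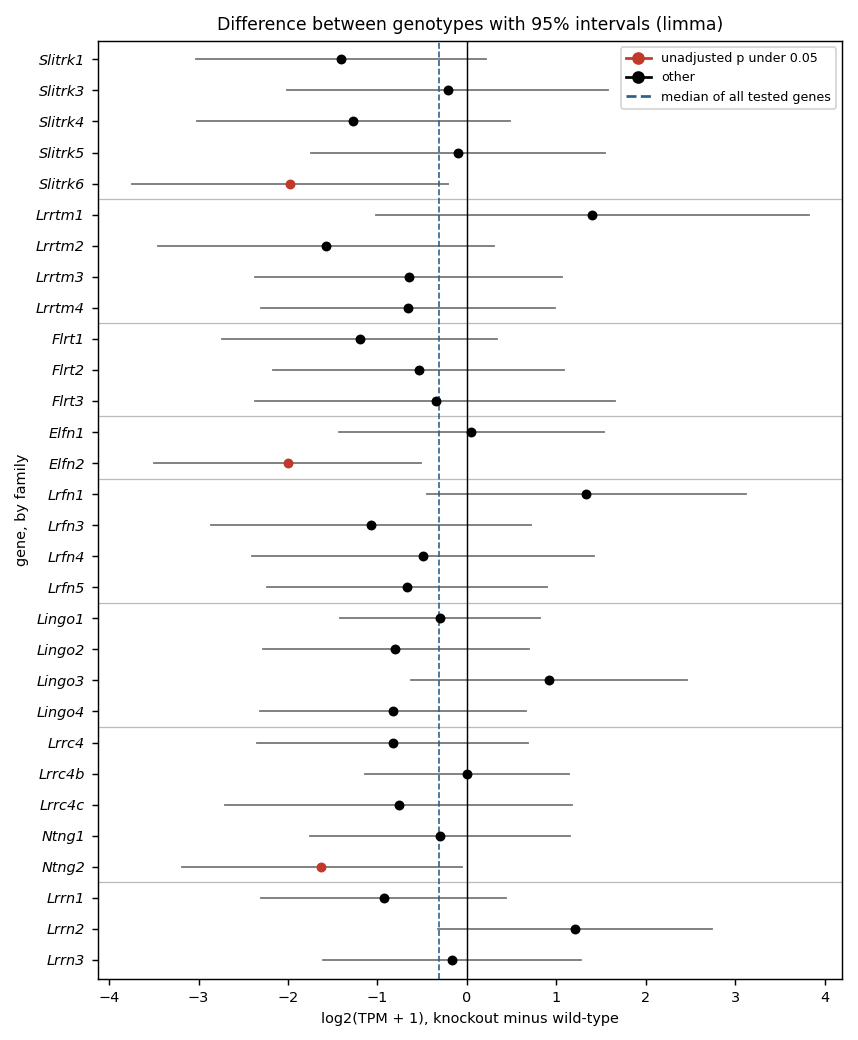
Difference of each tested member, knockout minus wild-type, on the log2(TPM + 1) scale, with 95% intervals from limma, grouped by family. Red marks the 3 members with an unadjusted p under 0.05, and the dashed line is the median of all tested genes at -0.31. Most points lie left of 0, and most intervals include both 0 and -0.31.

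The Elfn genes, whose proteins act across the synapse on group III metabotropic glutamate receptors and are known in the retina from photoreceptor synapses, differed from each other in their values. Elfn2 (chromosome 15, 78667331 to 78718771, minus strand, mm10) was at 22.4, 7.83, 2.78, 7 and 5.31 TPM in knockout 1 to 5, against 41.9, 41.4, 56.1, 15.7 and 22.4 TPM in wild-type 1 to 5. Knockout 2 to 5 lay below each wild-type library, and only knockout 1 reached into the wild-type range. The means were 9.05 ± 7.68 TPM in knockout and 35.5 ± 16.3 TPM in wild-type (SD, n = 5 each), and the log2 difference was -2.0 (SE 0.72, 95% interval -3.50 to -0.51). The two-sided exact permutation p over all divisions of the libraries into 5 and 5 was 0.0159, where the smallest possible is 0.00794, and the limma adjusted p was 0.992. The unadjusted limma p of Elfn2 was 0.0113, and it stayed between 0.00167 and 0.0363 under all 21 alternative settings. The 9 rod genes summed to 239, 57, 459, 359 and 1.21 TPM in knockout 1 to 5, against 3.89, 13.7, 10.4, 320 and 464 TPM in wild-type 1 to 5. The 3 libraries with the most Elfn2, wild-type 1 to 3, were low in rod genes, and the 2 wild-type libraries with the least Elfn2 were high in them, while knockout 5, the lowest in rod genes, was also low in Elfn2. Among the knockout libraries, knockout 1 had the most Elfn2 with 239 TPM of rod genes, and knockout 2 had 7.83 TPM of Elfn2 with 57 TPM of them. The part of rod genes in the difference was not tested. An antisense gene annotated at this locus shares 266 bases with exons of Elfn2, and the use of strand in counting is not given in the sources used here.

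Elfn1 (chromosome 5, 139907943 to 139974722, plus strand) was at 63.7, 106, 52.3, 54.7 and 34.4 TPM in knockout 1 to 5, against 133, 66.8, 83.7, 90.0 and 7.73 TPM in wild-type 1 to 5. The genotypes overlapped, and wild-type 5 was the lowest library of all. The log2 difference was 0.05 (SE 0.71, 95% interval -1.43 to 1.53), positive also after median centring (0.43) and quantile normalization (0.27) and negative without the 3 libraries apart (-0.35).

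The promoter windows of Elfn2 and Slitrk6, the 2 members with the smallest unadjusted p, are shown because Satb1 is known to bind stretches rich in A and T. Each window holds 250 bases before and 50 after the annotated start, from RefSeq on GRCm38.p6, written 5′ to 3′ on the gene's strand. Capitals mark the longest unbroken run of A and T, or the first of them where several are equally long, as in Elfn2.
Elfn2, chr15:78718722-78719021, minus strand: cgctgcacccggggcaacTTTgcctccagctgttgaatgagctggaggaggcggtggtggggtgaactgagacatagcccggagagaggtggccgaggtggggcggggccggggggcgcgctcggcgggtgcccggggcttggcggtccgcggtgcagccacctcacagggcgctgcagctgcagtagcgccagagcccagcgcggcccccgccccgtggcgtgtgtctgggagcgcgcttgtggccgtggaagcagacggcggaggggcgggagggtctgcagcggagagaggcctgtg
Slitrk6, chr14:110755100-110755399, minus strand: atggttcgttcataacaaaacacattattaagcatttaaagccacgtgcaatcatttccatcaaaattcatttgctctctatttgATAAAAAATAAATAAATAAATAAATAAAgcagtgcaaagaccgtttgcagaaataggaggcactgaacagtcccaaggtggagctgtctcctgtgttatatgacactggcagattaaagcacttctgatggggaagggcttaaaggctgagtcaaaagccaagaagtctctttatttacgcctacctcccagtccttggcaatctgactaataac
The windows differ in base composition. The Elfn2 window is 26.7% A and T, less than 94.5% of all 32851 windows, and its longest run of A and T is 3 bases, a length that 99.4% of windows reach. The Slitrk6 window is 61.7% A and T, more than 92.1% of all windows, and holds a run of 28 bases that begins 165 bases before the start, a length that 0.283% of windows reach. Windows were listed for 26 of the 32 members (31 windows; not for Flrt1, Lrfn1, Lrfn2, Lrrn3, Lrrtm2 and Slitrk4), with a median of 41% A and T, from 25.7% for Slitrk5 to 73.7% for a window of Lingo2, against a median of 47.3% for all windows. Base composition is a description, and no binding was measured.

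Slitrk genes encode transmembrane proteins that bind receptor tyrosine phosphatases of the LAR group and promote synapse formation. All 5 tested members had a negative difference (median -1.27), with 3 lower and 2 higher after median centring and 4 lower and 1 higher after quantile normalization. Slitrk6 (chromosome 14, 110748580 to 110755149, minus strand) was at 6.31, 4.31, 19.0, 0.359 and 0.871 TPM in knockout 1 to 5, against 17.9, 27.6, 25.5, 24.1 and 4.29 TPM in wild-type 1 to 5. Wild-type 2 to 4 lay above every knockout library, and wild-type 5 lay among the knockout values. The means were 6.16 ± 7.56 TPM in knockout and 19.9 ± 9.43 TPM in wild-type (SD, n = 5 each), and the log2 difference was -1.98 (SE 0.85, 95% interval -3.75 to -0.21). The exact permutation p was 0.0714, two-sided, the limma adjusted p 0.992 and the unadjusted limma p 0.0301. Without the 3 libraries apart the difference was -1.42 (SE 0.73), with an unadjusted limma p of 0.0746 and an adjusted p of 0.988. The unadjusted limma p was also above 0.05, at most 0.0943, without knockout 4 or 5 or wild-type 2, 3 or 4.

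Slitrk3 (chromosome 3, 73047265 to 73057803, minus strand), which promotes inhibitory synapses, had the highest median of the family. Its level was 14.7, 11.1, 35.6, 11.0 and 296 TPM in knockout 1 to 5, against 60.9, 52.5, 37.0, 45.4 and 7.97 TPM in wild-type 1 to 5. The library with the most and the library with the least Slitrk3 were both among the 3 that stood apart. With all libraries the log2 difference was -0.21 (SE 0.86) and after median centring 0.16, while without the 3 libraries it was -1.36, with an unadjusted limma p of 0.0467 and an adjusted p of 0.988. Slitrk1, known in mice for a part in anxiety-like behaviour, stood at 9.02 ± 6.31 TPM in knockout and 24.8 ± 13.8 TPM in wild-type (SD, n = 5 each), with 4 of 5 wild-type libraries above the highest knockout library (-1.41, SE 0.78). Slitrk4 stood at 8.73 ± 8.38 TPM in knockout and 23.9 ± 20.4 TPM in wild-type (-1.27, SE 0.84). Slitrk5 was at 6.15 to 127 TPM in knockout and 6.93 to 61.9 TPM in wild-type, the highest value being in knockout 1. Slitrk2, on the X chromosome as Slitrk4 is, was not tested, at 0.00169 to 5.18 TPM in knockout and 0 to 0.636 TPM in wild-type.

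Lrrtm genes encode postsynaptic proteins that bind neurexins and help to hold AMPA receptors at excitatory synapses. Of the 4 tested members 3 were lower and 1 higher, also after median centring and quantile normalization, and all 4 were lower without the 3 libraries apart. The median difference was -0.66. Lrrtm2 was at 21.9, 17.2, 4.53, 1.93 and 1.99 TPM in knockout 1 to 5, against 54.3, 14.8, 64.9, 21.1 and 2.73 TPM in wild-type 1 to 5. Wild-type 1 and 3 were above every knockout library, and the other wild-type values lay within the knockout range. The means were 9.51 ± 9.37 TPM in knockout and 31.6 ± 26.7 TPM in wild-type (SD, n = 5 each). For Lrrtm2 the log2 difference was -1.58 (SE 0.90, two-sided exact permutation p = 0.151, limma adjusted p = 0.992). Lrrtm2 lies within Ctnna1 on the opposite strand and shares 95 exon bases with it, and Ctnna1 had medians of 5.21 TPM in knockout and 3.86 TPM in wild-type.

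Lrrtm1 (chromosome 6, 77242689 to 77257791, plus strand), whose protein binds neurexins, was at 12.1, 15.5, 5.22, 58.2 and 1484 TPM in knockout 1 to 5, against 83.0, 21.9, 13.5, 5.33 and 4.26 TPM in wild-type 1 to 5. A single library, knockout 5, exceeded the wild-type range. The log2 difference was 1.40 (SE 1.16, 95% interval -1.02 to 3.82), and it was 0.11 without knockout 5 and -0.89 without the 3 libraries apart. The gene lies within an intron of Ctnna2, whose medians were 53.3 TPM in knockout and 77.5 TPM in wild-type. Lrrtm3 was at 1.85 to 10.8 TPM in knockout and 2.65 to 43.1 TPM in wild-type, and Lrrtm4 at 0.628 to 3.87 TPM in knockout and 0.326 to 20 TPM in wild-type. Lrrtm4 shares 1543 exon bases with an antisense gene.

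Flrt genes encode proteins that bind latrophilins and Unc5 receptors and act in both adhesion and repulsion. All 3 members had a negative difference (median -0.54), and 2 of 3 after median centring. Flrt1 (chromosome 19, 7092001 to 7105729, minus strand) was at 11.6, 39.6, 11.7, 9.96 and 1.86 TPM in knockout 1 to 5, against 27.0, 30.1, 27.4, 21.8 and 21.7 TPM in wild-type 1 to 5. The wild-type values were close together, 4 knockout libraries lay below all of them, and knockout 2 lay above all of them. The means were 14.9 ± 14.4 TPM in knockout and 25.6 ± 3.71 TPM in wild-type (SD, n = 5 each), and the log2 difference was -1.20 (SE 0.74). The two-sided exact permutation p was 0.0476, while the unadjusted limma p was 0.121 and the adjusted p 0.992. The difference was -0.69 without knockout 5 and -0.56 without the 3 libraries apart. Flrt2 (chromosome 12, 95692226 to 95785215, plus strand) was at 79.4, 39.8, 37.6, 11.2 and 11.1 TPM in knockout 1 to 5, against 98.1, 63.2, 77.9, 29.3 and 6.97 TPM in wild-type 1 to 5. It was low in the 3 libraries apart in both genotypes, and the difference was -0.54 (SE 0.78). Leaving out single libraries gave -0.22 without wild-type 1, -0.23 without knockout 4 or without knockout 5, and -1.13 without wild-type 5. Flrt3 was at 1.2 to 14.8 TPM in knockout and 0.403 to 47.7 TPM in wild-type.

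Lrfn genes encode the SALM proteins, which bind receptor tyrosine phosphatases, and some of which can bind the scaffold PSD-95. Of the 4 tested members 3 were lower and 1 higher, also after median centring and quantile normalization, with a median difference of -0.58. The member with a positive difference was Lrfn1 (chromosome 7, 28451980 to 28468242, plus strand), at 15.5, 5.84, 38.5, 61.8 and 57.2 TPM in knockout 1 to 5, against 4.07, 45.0, 3.46, 5.06 and 24.4 TPM in wild-type 1 to 5. Its wild-type values fell into low and high libraries, with 3 under every knockout value and 2 within their range. The means were 35.8 ± 24.7 TPM in knockout and 16.4 ± 18.2 TPM in wild-type (SD, n = 5 each). For Lrfn1 the log2 difference was 1.33 (SE 0.86, two-sided exact permutation p = 0.198, limma adjusted p = 0.992).

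Lrfn3 (chromosome 7, 30355489 to 30362772, minus strand) was the family's most abundant member. It was at 27.4, 79.8, 39.6, 257 and 3.58 TPM in knockout 1 to 5, against 180, 61.5, 29.8, 149 and 84.9 TPM in wild-type 1 to 5. Knockout 4 and 5 held the highest and the lowest value of all libraries, and the difference was -1.07 (SE 0.86). It was -1.74 without knockout 4 and -0.28 without knockout 5. Lrfn4 was at 7.49 to 175 TPM in knockout and 9.65 to 226 TPM in wild-type. Within each genotype its highest value was in library 4, and wild-type 5, at 217 TPM, also lay above knockout 4. Lrfn5 stood at 23.7 ± 18.9 TPM in knockout and 38.2 ± 26.2 TPM in wild-type (SD, n = 5 each). Lrfn2, not tested, was at 0.122 to 2.21 TPM in knockout and 0 to 1.44 TPM in wild-type.

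Lingo genes encode neuronal surface proteins with leucine-rich repeats and an immunoglobulin domain, of which Lingo1 is a partner of the Nogo receptor that limits axon growth and myelination. Of the 4 members 3 were lower and 1 higher (median -0.55), with 2 lower and 2 higher after median centring. Lingo1 (chromosome 9, 56618475 to 56796468, minus strand) was at 458, 490, 155, 207 and 180 TPM in knockout 1 to 5, against 326, 316, 395, 484 and 188 TPM in wild-type 1 to 5. Both genotypes covered nearly the same range, with means of 298 ± 162 TPM in knockout and 342 ± 109 TPM in wild-type (SD, n = 5 each). The log2 difference was -0.30 (SE 0.54, 95% interval -1.42 to 0.82), close to the median of all genes. It was 0.08 after median centring, and leaving out single libraries gave -0.52 without knockout 2 to -0.11 without knockout 3. Lingo3 (chromosome 10, 80832801 to 80844039, minus strand) had a positive difference, at 23.3, 46.2, 7.54, 10.2 and 12.8 TPM in knockout 1 to 5, against 13.0, 10.3, 5.19, 12.2 and 3.82 TPM in wild-type 1 to 5. Its 2 highest values were in knockout 1 and 2, and the other 3 knockout libraries lay within the wild-type range (0.92, SE 0.74, two-sided exact permutation p = 0.135, limma adjusted p = 0.992). Without knockout 2 the difference was 0.56. After median centring the difference was 1.29, with an unadjusted limma p of 0.0377 and an adjusted p of 1.

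Lingo2 (chromosome 4, 35706647 to 36951747, minus strand) was at 32.2, 29.4, 30.6, 18.5 and 3.71 TPM in knockout 1 to 5, against 44.8, 44.7, 42.3, 36.3 and 12.7 TPM in wild-type 1 to 5. In each genotype library 5 was far below the others, and wild-type 1 to 4 lay above every knockout library (-0.80, SE 0.71, limma adjusted p = 0.992). Without knockout 5 the difference was -0.28. Lingo4 was low, at 0 to 5.60 TPM in knockout and 2.25 to 7.71 TPM in wild-type.

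Lrrc4 genes encode the netrin-G ligands, and the netrin-G genes encode lipid-anchored axonal proteins that pair with them: Ntng1 protein with that of Lrrc4c, and Ntng2 protein with that of Lrrc4. All 5 genes had a negative difference (median -0.76), with 3 lower and 2 higher after median centring and 4 lower and 1 higher after quantile normalization. Ntng2 (chromosome 2, 29194541 to 29253005, minus strand) was at 3.79, 1.09, 4.54, 3.43 and 0 TPM in knockout 1 to 5, against 16.5, 7.80, 6.25, 2.73 and 15.5 TPM in wild-type 1 to 5. All wild-type libraries but wild-type 4 lay above every knockout library. The log2 difference was -1.63 (SE 0.75, 95% interval -3.19 to -0.06), with a two-sided exact permutation p of 0.0317 and an unadjusted limma p of 0.0429, adjusted 0.992. Without the 3 libraries apart it was -1.07 (SE 0.84), with an unadjusted limma p of 0.223 and an adjusted p of 0.988. After median centring it was -1.25, with an unadjusted limma p of 0.0807 and an adjusted p of 1. The unadjusted limma p was also above 0.05 without knockout 2 or 5 or wild-type 1, 2 or 5. A listed 0 can be a failed estimate: Tuba1a, a tubulin gene that neurons use in quantity, was listed at 0 in knockout 4 and 5. In wild-type 5 it was at 159316 TPM. Ntng2 shares 558 exon bases with a non-coding gene on the same strand, so their reads may be split. That gene had medians of 1.72 TPM in knockout and 0.655 TPM in wild-type, and its part in the Ntng2 difference was not tested.

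Its binding partner Lrrc4 was at 3.06 to 6.25 TPM in knockout and 3.85 to 27.2 TPM in wild-type, with 3 wild-type libraries above every knockout library (-0.83, SE 0.73). The other pair was more abundant. Ntng1 stood at 49.4 ± 22.2 TPM in knockout and 80.3 ± 65.4 TPM in wild-type, and Lrrc4c at 19.8 ± 21.4 TPM in knockout and 32.5 ± 27.2 TPM in wild-type (SD, n = 5 each). Lrrc4b (chromosome 7, 44429018 to 44463351, plus strand), which binds receptor phosphatases in place of netrin-Gs, had the highest median of these 5 genes. It was at 105, 64.9, 116, 250 and 81.6 TPM in knockout 1 to 5, against 102, 142, 93.8, 127 and 94.3 TPM in wild-type 1 to 5. Wild-type values lay between the knockout extremes, and the difference was 0.00 in size (SE 0.55, 95% interval -1.14 to 1.14).

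Lrrn genes encode neuronal leucine-rich repeat proteins, of which Lrrn1 is known for a part in boundaries between regions of the developing brain. Of the 3 members 2 were lower and 1 higher, with 1 lower and 2 higher after median centring and after quantile normalization. Lrrn1 (chromosome 6, 107529768 to 107570214, plus strand) was at 247, 188, 146, 63.5 and 44.7 TPM in knockout 1 to 5, against 518, 252.4, 396, 134 and 71.0 TPM in wild-type 1 to 5. In both genotypes libraries 4 and 5 were the lowest, and 3 wild-type libraries were above every knockout library. The means were 138 ± 84.8 TPM in knockout and 274 ± 184 TPM in wild-type (SD, n = 5 each), and the log2 difference was -0.93 (SE 0.66, limma adjusted p = 0.992), and -0.60 without knockout 5. Lrrn2 (chromosome 1, 132880273 to 132940005, plus strand) was at 33.9, 49.4, 28.3, 108 and 16.7 TPM in knockout 1 to 5, against 22.7, 14.0, 5.58, 56.2 and 10.3 TPM in wild-type 1 to 5. In each genotype library 4 was the highest, and 3 wild-type libraries lay below every knockout library. The means were 47.3 ± 35.9 TPM in knockout and 21.7 ± 20.3 TPM in wild-type (SD, n = 5 each). For Lrrn2 the log2 difference was 1.21 (SE 0.73, two-sided exact permutation p = 0.119, limma adjusted p = 0.992). After median centring it was 1.58, with an unadjusted limma p of 0.0331 and an adjusted p of 1. Lrrn3 stood at 96.1 ± 71.6 TPM in knockout and 112 ± 76.5 TPM in wild-type (SD, n = 5 each).

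**Figure D3:**
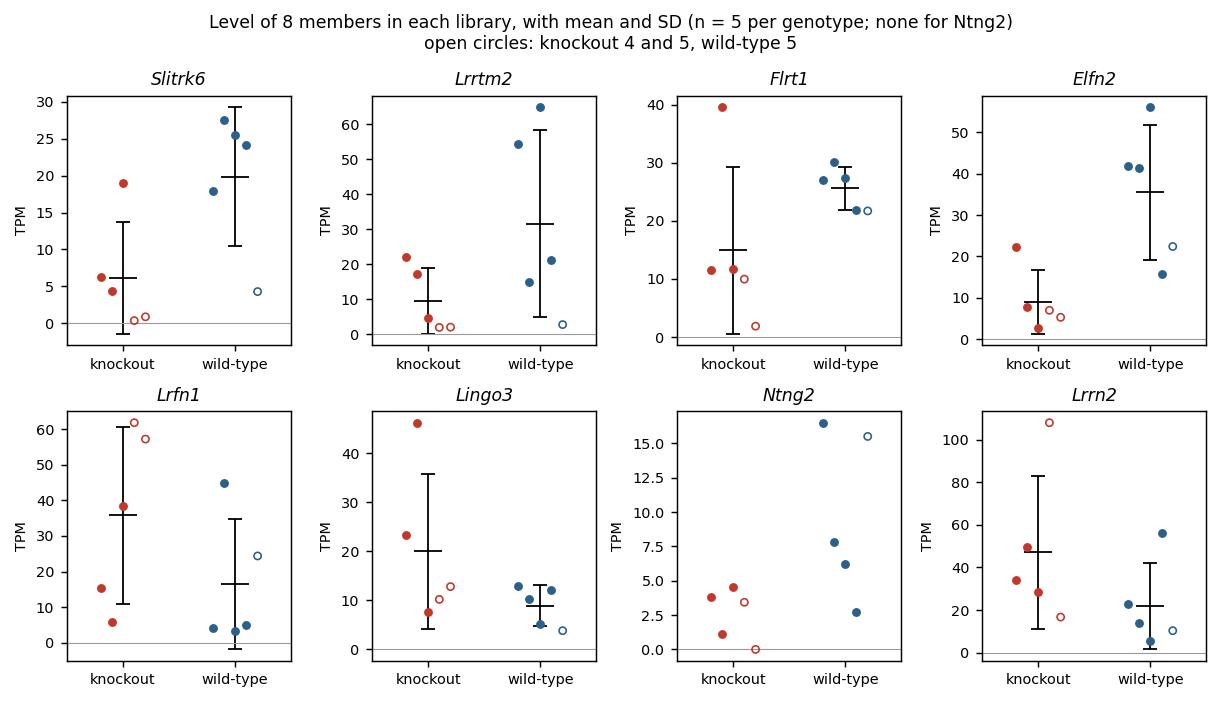
TPM of the 8 members with the smallest limma p in their family, in each knockout library (red) and wild-type library (blue), with the mean and SD of 5 libraries per genotype. Ntng2 has no mean because a library is listed at 0, and open circles mark knockout 4, knockout 5 and wild-type 5. For Elfn2, 4 knockout libraries lie below all wild-type libraries, and for Lrfn1, Lingo3 and Lrrn2 the highest values are in knockout.

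Known binding partners of these proteins were measured beside them, as a list of 27 genes of which 24 were tested. The list includes the teneurin genes Odz1, Odz2, Odz3 and Odz4, listed as partners of latrophilins and not of a member. Their differences were -0.36, -0.93, -0.60 and -0.49. With limma, 0 of the 24 had an adjusted p under 0.05, and 22 had a negative difference (median -0.63), against 67.4% of all tested genes, with 18 of 24 negative after median centring and 19 after quantile normalization. At an unadjusted p under 0.05 there were 2, both lower in knockout (8.33% of the partners tested, against 2.57% of all tested genes). Nrxn3, a neurexin and so a presynaptic partner of Lrrtm proteins, was at 20.7, 44.5, 13.1, 7.73 and 3.63 TPM in knockout 1 to 5, against 78.7, 61.4, 70.3, 64.7 and 8.95 TPM in wild-type 1 to 5. Wild-type 1 to 4 lay above every knockout library, and wild-type 5 among the knockout values (-1.74, SE 0.78, two-sided exact permutation p = 0.0714, limma adjusted p = 0.992). Ngfr, the neurotrophin receptor that can complex with Lingo1, was at 0.648, 0.146, 1.1, 0.78 and 0.818 TPM in knockout 1 to 5, against 17.6, 7.44, 1, 69.5 and 2 TPM in wild-type 1 to 5. It was near or under 1 TPM in all knockout libraries and in wild-type 3, and varied widely in the other wild-type libraries (-2.47, SE 0.85, two-sided exact permutation p = 0.0159, limma adjusted p = 0.992).

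Partners with high medians were abundant in both genotypes. Lphn1 (Adgrl1), a latrophilin bound by Flrt proteins, was at 227, 114, 147, 130 and 58.9 TPM in knockout 1 to 5, against 187, 333, 188, 264 and 90.5 TPM in wild-type 1 to 5 (-0.65, SE 0.56). Ptprs, a receptor phosphatase bound by Slitrk and SALM proteins, was at 178, 107, 156, 184 and 75.1 TPM in knockout 1 to 5, against 183, 222, 152, 146 and 111 TPM in wild-type 1 to 5 (-0.25, SE 0.52). For both the genotypes overlapped. Nrxn2, a neurexin gene added after its values were seen, lay at 31.4 to 108 TPM in knockout and 98.9 to 124 TPM in wild-type. Its 4 lower knockout libraries lay below all wild-type libraries (-0.85, SE 0.55). The two-sided exact permutation p was 0.0159, while the unadjusted limma p was 0.141 and the adjusted p 0.992. Grm6, the metabotropic receptor of ON bipolar cells and a partner of Elfn1 in the retina, was listed at 0 in all libraries but knockout 2, at 0.0749 TPM, while its relative Grm7 was at 3.24 to 29.2 TPM in knockout and 7.64 to 56.4 TPM in wild-type.

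**Figure D4:**
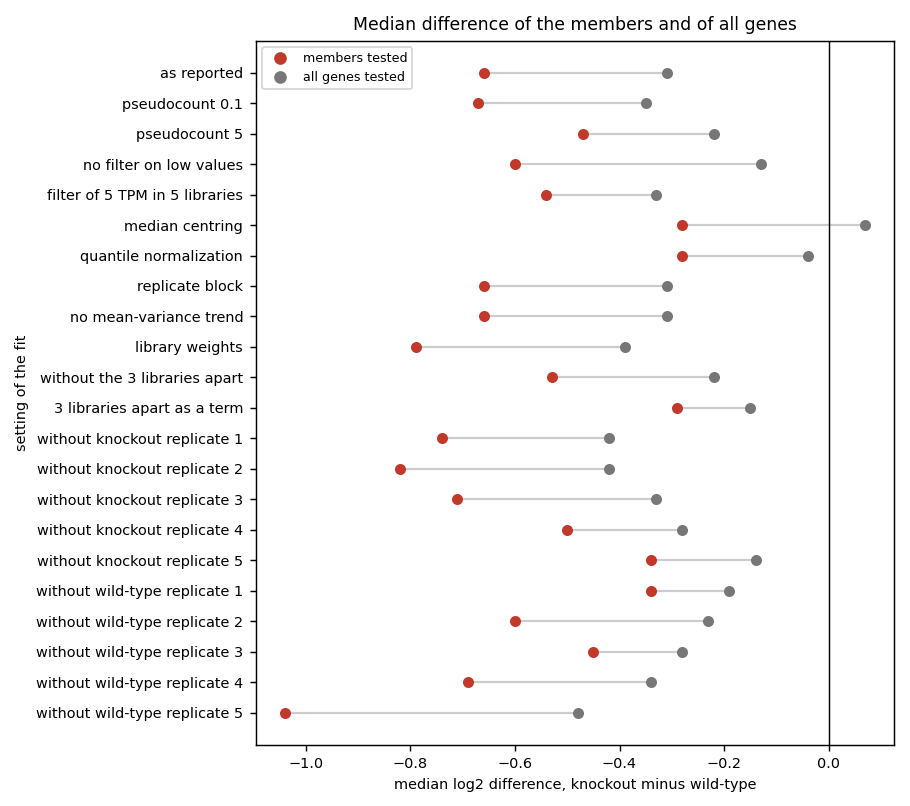
Median log2 difference, knockout minus wild-type, of the tested members (red) and of all tested genes (grey), as reported and under each of 21 alternative settings. The members' median lies below that of all genes in every setting, between -1.04 and -0.28, and both move when the scaling or the set of libraries changes.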

How the data were processed

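The authors deposited 1 table of log10(TPM + 1) values for 23746 gene entries in 10 libraries; back-transformed values (10 to the power of the value, less 1) summed to 1000000 TPM per library. The submitters' processing notes name TopHat2 2.0.10, Cufflinks and mm10; how reads were counted, with which annotation and filters and whether by strand, is not given in the sources used here. TPM keeps no depth, so depth is unknown and no counting interval was computed. Between 10073 and 12555 symbols per library had at least 1 TPM. Here, 26 entries with a number for a name were left out (0.0438% to 0.198% of the TPM of a library), and 240 symbols on several lines were summed.

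TPM was then taken to log2(TPM + 1), which understates differences of low genes, and the 11744 genes reaching 1 TPM in 5 or more libraries were fitted with limma 3.58.1 in R 4.3.3 (genotype only, mean-variance trend, Benjamini-Hochberg adjustment over all tested genes, threshold 0.05). The fit was tested on simulated data. Single genes also got a two-sided exact permutation test over all divisions of the libraries. The members, partner and marker lists, and the alternatives, were chosen with earlier results of these data known. Values per library are given for tested members with an unadjusted p under 0.05, without overlap, or with the smallest p or the highest median of their family, with the netrin-G genes taken with Lrrc4; Lrrtm1, Lingo2, Nrxn2, Grm6 and Grm7 were added after their values were seen. Gene positions are from GENCODE M21 on GRCm38, which is mm10. Replicate numbers were not used as pairs. Values of 1 partner gene are not reported here.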

Additional observations from a re-analysis of the deposited data

Results flagged for a closer look

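In 5 of 64 sets of 5 libraries (32 members in each genotype), the lowest library was further from the next than Dixon's 95% critical value of 0.71 allows, on the log2(TPM + 1) scale. Chance flags about 1 in 20 sets. Each of the 5 was a library numbered 5. In knockout 5, Lingo2 was at 3.71 TPM, against 18.5 to 32.2 TPM in the other knockout libraries. In wild-type 5, Lingo2 was at 12.7 TPM, against 36.3 to 44.8 TPM in the other wild-type libraries. Slitrk3 in wild-type 5 was at 7.97 TPM, against 37.0 to 60.9 TPM, Slitrk6 was at 4.29 TPM, against 17.9 to 27.6 TPM, and Elfn1 was at 7.73 TPM, against 66.8 to 133 TPM. Both libraries are among the 3 that stand apart on the first principal component, and the part of that in these values was not tested.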

How the results depend on the processing

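No member passed an adjusted limma p of 0.05 in any of the 21 alternatives, and the members' median difference was below that of all genes in each, at -1.04 to -0.28 (-1.04 to -0.34 with each library left out). Between 18 and 25 members were lower (22 to 25 with each library left out). Over all genes the count called was 1 with a filter of 5 TPM, 1 without a mean-variance trend, 3 with library weights, and 0 to 1 with each library left out (1 without wild-type 3, 4 or 5). Without the 3 libraries apart, 3 members did not overlap, against 0 with all libraries. All 3 had knockout below wild-type, where 4.49% of all tested genes did, against 0.426% with all libraries. Members at an unadjusted p under 0.05 numbered 3 with all libraries, 5 after quantile normalization, 6 with library weights, and 1 to 6 with each library left out (1 without knockout 5 or wild-type 2, 6 without wild-type 5). Of the 11744 tested genes, 389 were at that p with all libraries, 401 after quantile normalization and 834 with library weights. Without knockout 5, wild-type 2 or wild-type 5 they numbered 299, 347 and 845, so the count over all genes moved as well. Of the 30 tested members, 10 turned direction in at least 1 alternative and 20 in none. Those 10 include Slitrk5, Lrrtm1, Flrt3, Lrfn4, Ntng1 and Lrrn3, whose values over the alternatives ran from -0.65 to 0.39, -0.89 to 2.08, -1.25 to 0.27, -1.09 to 0.12, -0.80 to 0.09 and -0.63 to 0.21. The others were Elfn1 (-0.01 with a pseudocount of 5, -0.19 with library weights, -0.35 without the 3 libraries, -0.63 to 0.36 with each library left out), Lingo1 (0.08 after median centring), Lrrc4b (0.00 with a pseudocount of 5, 0.37 after median centring, 0.15 after quantile normalization, -0.30 to 0.19 with each library left out) and Slitrk3 (0.16 after median centring, -1.04 to 0.12 with each library left out). The cause was not tested. With the replicate number as a block, 0 members were called, the members' median stayed at -0.66, and 8 members (against 3 without it) and 830 of all genes (against 389) had an unadjusted p under 0.05. The labels give no shared litter or day for a number; correlations of deviations between same-numbered libraries were 0.225, 0.0741, 0.132, -0.032 and 0.364, and 3 of 5 knockout and 2 of 5 wild-type libraries matched best with their own number, so pairing is a hint from the data for some numbers only. Depth is unknown, so limits for values near 0 cannot be given.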
